A study of Mus musculus with 8 samples.

Results

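The 10 genes described here encode the core of antigen presentation on major histocompatibility complex (MHC) class I molecules in the mouse, together with the inducible subunits of the immunoproteasome. They were chosen by name for their role, with earlier results of these data known, and were located in the count table through the gene symbols and Ensembl identifiers of the authors' deposited table. All 10 were found among the 54309 genes of the count table, and all 10 passed the filter on low counts, which left 15472 genes for testing. The members are the heavy chains H2-K1 and H2-D1, the light chain B2m, the peptide transporter subunits Tap1 and Tap2, the loading chaperone Tapbp, the immunoproteasome subunits Psmb8, Psmb9 and Psmb10, and the transcriptional activator Nlrc5.

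Whole-liver polyadenylated RNA was measured in 2 groups of male C57BL/6J mice. Mice of the antiCD47 group were injected intraperitoneally with an antibody against CD47, the membrane protein whose contact with macrophage SIRPα holds back engulfment, at 200 µg per mouse from week 8 to week 16 of the diet. Mice of the IgG group received IgG over the same weeks. Every mouse of both groups ate the Fructose-Palmitate-Cholesterol (FPC) diet for 16 weeks, so that a lean liver or one without injections forms no part of the comparison. Each group was represented by 4 libraries, numbered 1 to 4, while the series gives 7 to 8 mice per group, and the labels do not say which mouse gave which library. Should several libraries come from the same mouse, the p-values below measure technical spread only.

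Total counts lay between 43691472 and 55477484 per library, and the rarest member, Nlrc5, still had 536 to 1331 counts in each library. Hepatocyte markers were abundant throughout, with 8 listed genes summing to 60012 to 71501 CPM, the count scaled to a common library size, in antiCD47 libraries and 57344 to 62169 CPM in IgG libraries. In whole tissue, fewer cells of a type and less RNA per cell cannot be told apart.

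Class I molecules carry peptides from inside the cell to its surface, where CD8 T cells inspect them. Proteasomes cut proteins into peptides, the transporter associated with antigen processing (TAP) carries these into the endoplasmic reticulum, and tapasin helps to load them onto a heavy chain paired with β2-microglobulin. Interferon-γ raises most of this machinery through factors that include IRF1 and NLRC5, and replaces the catalytic proteasome subunits with the immunosubunits encoded by Psmb8, Psmb9 and Psmb10. Hepatocytes carry little class I at rest compared with immune cells, and hepatitis is known to raise it.

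None of the 10 genes passed the test between antiCD47 and IgG livers. With edgeR's quasi-likelihood test and an adjusted p threshold of 0.05, 0 of 10 were called, in a comparison in which 10.8% of all genes tested were called. At an unadjusted p under 0.05 the count was also 0 of 10, against 32.5% of all genes, and the libraries of both groups overlapped for every member, whereas they did not overlap for 19.6% of all genes. DESeq2 called 0 of the 10 as well, beside 20.5% of all genes, with 2 of them, Tap1 and Nlrc5, at an unadjusted p under 0.05. Limma voom called 0, beside 11.3% of all genes. Limma voom with quality weights called 1, Tap1, beside 28% of all genes, and the fit with the replicate number as a block called 1, Nlrc5, beside 15.7%. Tap1, Nlrc5 and Psmb10 had an unadjusted p under 0.05 with quality weights, and these and Tapbp had one with the block. B2m had one too, with a negative estimate, in edgeR with libraries scaled by their totals. For unadjusted p, the share of all genes was counted only in the first edgeR test. In the authors' deposited table the adjusted p of the members ran from 0.136 to 0.999. The median log2 fold change of antiCD47 over IgG was 0.10 over the 10 members and −0.0064 over all genes tested. It was −0.09 over the members when libraries were scaled by their totals, a scaling that moved the median of all genes to −0.19 and put the members between −0.33 for Psmb9 and 0.26 for Nlrc5. Whether these counts set the 10 members apart from the other genes was not tested.

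**Figure D1:**
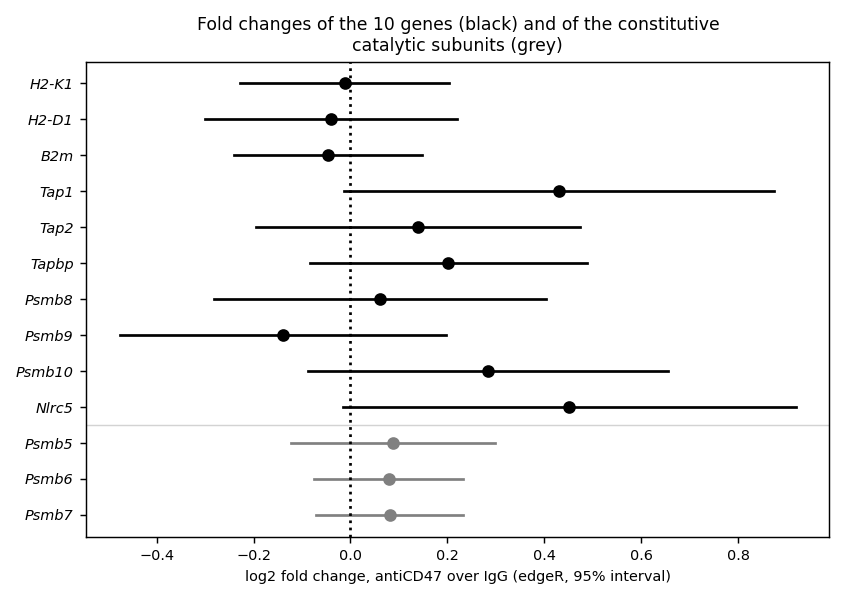
Log2 fold change of antiCD47 over IgG livers for each of the 10 class I genes and for the constitutive proteasome subunits Psmb5, Psmb6 and Psmb7, with points at the edgeR estimate and bars for the 95% interval. Every interval includes 0, with Tap1 (0.43) and Nlrc5 (0.45) farthest to the right.

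The heavy and light chains were the most abundant members per transcript length and had nearly equal means in both groups after TMM scaling. With scaling by totals their log2 fold changes were −0.20 for H2-K1, −0.23 for H2-D1 and −0.23 for B2m, with adjusted p of 0.128, 0.140 and 0.0791 (edgeR). H2-K1 (ENSMUSG00000061232), a classical heavy chain, stood at 1323, 1369, 1330.2 and 1313 CPM in antiCD47 libraries 1 to 4, against 1264, 1573, 1163 and 1380.1 CPM in IgG libraries 1 to 4. The antiCD47 libraries lay inside the IgG range, and IgG 2 was the highest of all 8. The log2 fold change was −0.012 ± 0.097 (SE), with a 95% interval from −0.23 to 0.20 and an adjusted p of 0.942 in edgeR. On a linear scale that interval runs from 0.854-fold to 1.15-fold.

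H2-D1 (ENSMUSG00000073411), the other classical heavy chain of this strain, measured 811, 887, 869 and 796 CPM in antiCD47 libraries, against 749, 1067, 754 and 888 CPM in IgG libraries. Again the IgG libraries spread more widely and enclosed the antiCD47 ones. Its log2 fold change was −0.040 ± 0.12 (SE), interval −0.30 to 0.22, adjusted p 0.837 (edgeR). The heavy chains share part of their sequence: 16.9% of the 31-base words of the H2-K1 transcript also occur in H2-D1, and 12.9% of those of H2-D1 occur in H2-K1. Counting every other gene, 27.5% of the H2-D1 words occur elsewhere. Counts assigned to either gene are therefore uncertain to the extent that reads were shared out between them or with other genes.

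B2m (ENSMUSG00000060802), the light chain common to all class I molecules, had 1731, 1633, 1665 and 1687 CPM in antiCD47 livers, against 1608, 1983, 1598 and 1745 CPM in IgG livers. No other gene shared a 31-base word with its transcript. The log2 fold change was −0.046 ± 0.087 (SE), interval −0.24 to 0.15, adjusted p 0.742 (edgeR), and on a linear scale the interval runs from 0.847-fold to 1.11-fold.

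Spread between libraries was smaller in the antiCD47 group for these chains. The coefficient of variation was 1.82% in antiCD47 livers and 13.1% in IgG livers for H2-K1, 5.24% and 17.3% for H2-D1, and 2.46% and 10.4% for B2m. Psmb9 had 3.76% in antiCD47 livers and 23.8% in IgG livers. In all, 7 of the 10 members varied less in the antiCD47 group, while Tap1, Tap2 and Tapbp varied more there. The difference in spread was not tested, and the share of all genes that varied less in antiCD47 livers was not counted.

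The promoters of H2-K1, H2-D1, B2m and Tap1 are shown because kappa B, interferon response and Y box elements of class I promoters are the textbook route from inflammation to this pathway. Each is a RefSeq window from 250 bases before to 50 after a start of the gene on build GRCm38.p6, printed 5′ to 3′ on the gene's strand. The windows are H2-K1 on the minus strand at chr17:34000298-34000597, H2-D1 on the plus strand at chr17:35262844-35263143, B2m on the plus strand at chr2:122147437-122147736, and Tap1 on the plus strand at chr17:34187306-34187605. Capitals mark matches, on either strand, to 4 patterns: an IRF-type element (GAAA, any 2 bases, GAAA), a GAS element (TTCNNNGAA), a kappa B element (GGG, any 3 bases, T, any base, CC) and a Y box (CCAAT).
H2-K1: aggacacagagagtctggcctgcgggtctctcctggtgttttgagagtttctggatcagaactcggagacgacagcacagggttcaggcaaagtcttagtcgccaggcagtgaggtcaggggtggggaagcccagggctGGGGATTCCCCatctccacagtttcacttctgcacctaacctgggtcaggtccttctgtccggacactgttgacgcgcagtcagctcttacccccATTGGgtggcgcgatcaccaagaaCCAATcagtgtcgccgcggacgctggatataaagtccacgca
H2-D1: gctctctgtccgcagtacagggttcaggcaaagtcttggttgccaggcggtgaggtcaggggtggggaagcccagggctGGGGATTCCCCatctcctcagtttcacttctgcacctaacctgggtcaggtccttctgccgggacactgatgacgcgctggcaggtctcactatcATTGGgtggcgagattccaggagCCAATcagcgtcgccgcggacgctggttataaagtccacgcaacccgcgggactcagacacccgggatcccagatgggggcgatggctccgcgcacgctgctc
B2m: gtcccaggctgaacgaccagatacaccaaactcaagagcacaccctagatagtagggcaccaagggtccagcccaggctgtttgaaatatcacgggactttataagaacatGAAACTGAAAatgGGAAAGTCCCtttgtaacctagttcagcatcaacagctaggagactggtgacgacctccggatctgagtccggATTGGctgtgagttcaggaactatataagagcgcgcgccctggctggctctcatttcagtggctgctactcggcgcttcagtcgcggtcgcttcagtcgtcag
Tap1: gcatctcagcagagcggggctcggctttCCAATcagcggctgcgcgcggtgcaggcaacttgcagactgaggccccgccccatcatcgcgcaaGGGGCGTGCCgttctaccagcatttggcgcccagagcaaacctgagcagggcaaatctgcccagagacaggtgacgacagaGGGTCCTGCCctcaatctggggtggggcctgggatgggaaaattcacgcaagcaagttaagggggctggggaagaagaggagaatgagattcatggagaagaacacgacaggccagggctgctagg

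A window was found for 8 of the 10 members, all but Tap2 and Nlrc5. Positions are counted from the start, with bases before it negative. In H2-K1 a kappa B match lay at −111 to −102, and in H2-D1 the same letters, GGGGATTCCC, lay at −171 to −162, each overlapped by a match on the opposite strand shifted by 1 base. H2-K1 has another RefSeq window with a different start, not printed, in which the same match lay at −125 to −116. B2m held an IRF-type match, GAAACTGAAA, at −139 to −130 and a kappa B match at −126 to −117. Tap1 held 2 kappa B matches, and its window shares 275 bases with that of Psmb9, which starts 226 bases away on the opposite strand. Psmb8 held a GAS match, TTCCCAGAA. It was found on both strands because the pattern reads the same on both, although the matched letters do not. Tapbp had 2 Y boxes, and Psmb10 had no match to any of the 4 patterns. Among all 32851 RefSeq mouse windows, 3.44% held the IRF-type pattern, 8.3% the GAS pattern, 17.4% the kappa B pattern and 37.4% a Y box. B2m was the single member with an IRF-type match, but an element that departs from the fixed letters would not be marked. A window without a match is therefore not shown to lack the element. These are letter matches only, and no binding was measured.

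The genes of peptide transport and loading had positive estimates that did not pass the test. Tap1 (ENSMUSG00000037321), a subunit of the TAP transporter, stood at 31.1, 54.95, 42.3 and 33.8 CPM in antiCD47 libraries, against 25.5, 34.9, 23.6 and 36.4 CPM in IgG libraries. AntiCD47 2 and antiCD47 3 were above every IgG library, while antiCD47 1 and antiCD47 4 lay within the IgG range. Tap1 averaged 40.6 ± 10.7 CPM in antiCD47 livers and 30.1 ± 6.47 CPM in IgG livers (SD, n = 4 each). Its log2 fold change was 0.43 ± 0.20 (SE), with an interval from −0.013 to 0.87, an unadjusted p of 0.0557 and an adjusted p of 0.164 (edgeR). Over the 19 alternative settings its adjusted p ran from 0.0442, in limma voom with quality weights, to 0.394, without antiCD47 2, where its log2 fold change was 0.25.

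Tap2 (ENSMUSG00000024339), the partner subunit, had 30.5, 45.3, 33.9 and 33.1 CPM in antiCD47 libraries, against 30.8, 38.1, 25.5 and 35.1 CPM in IgG libraries. The log2 fold change of 0.14 ± 0.15 (SE; interval −0.19 to 0.47; adjusted p 0.544, edgeR) became −0.05 under scaling by totals. Tapbp (ENSMUSG00000024308), which encodes tapasin, the bridge between TAP and the empty heavy chain, had 103, 150.0, 119 and 119 CPM in antiCD47 libraries. The IgG libraries had 98.7, 125, 91.8 and 112 CPM. Tapbp was highest in antiCD47 2, and the remaining antiCD47 libraries lay within the IgG range. Its log2 fold change was 0.20 ± 0.13 (SE; interval −0.083 to 0.49; adjusted p 0.298, edgeR).

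Of the immunosubunits, Psmb10 had the highest estimate and Psmb9 the lowest of all 10 members. Psmb8 (ENSMUSG00000024338), which replaces Psmb5 in the immunoproteasome, had 32.4, 44.3, 32.9 and 40.2 CPM in antiCD47 libraries, against 29.8, 43.1, 29.5 and 41.2 CPM in IgG libraries. In both groups libraries 2 and 4 were high and libraries 1 and 3 low. The log2 fold change was 0.060 ± 0.15 (SE; interval −0.28 to 0.40; adjusted p 0.812, edgeR), and it was −0.13 with scaling by totals.

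Psmb9 (ENSMUSG00000096727), the counterpart of Psmb6, had 17.4, 18.6, 18.04 and 17.1 CPM in antiCD47 libraries, against 16.7, 23.1, 14.5 and 23.98 CPM in IgG libraries. All antiCD47 values lay in a narrow band inside the IgG range. The log2 fold change was −0.14 ± 0.15 (SE; interval −0.48 to 0.20; adjusted p 0.547, edgeR). Psmb10 (ENSMUSG00000031897), the counterpart of Psmb7, had 31.3, 47.6, 38.4 and 34.2 CPM in antiCD47 libraries, against 26.5, 39.5, 25.3 and 33.2 CPM in IgG libraries. Only antiCD47 2 exceeded the highest IgG library. The log2 fold change was 0.28 ± 0.17 (SE; interval −0.087 to 0.66; adjusted p 0.262, edgeR).

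Nlrc5 (ENSMUSG00000074151), the activator that binds class I promoters through the proteins assembled on them, had 15.9, 26.8, 17.96 and 18.7 CPM in antiCD47 libraries. The IgG libraries had 11.3, 18.99, 11.2 and 16.5 CPM. AntiCD47 2 was the highest of all 8 libraries, and IgG 2 exceeded the other antiCD47 libraries. Nlrc5 averaged 19.8 ± 4.79 CPM in antiCD47 livers and 14.5 ± 3.90 CPM in IgG livers (SD, n = 4 each). Its log2 fold change of 0.45 ± 0.21 (SE) stood beside that of Tap1 as the highest of the members, with an interval from −0.015 to 0.92, an unadjusted p of 0.0566 and an adjusted p of 0.166 (edgeR). Over the 19 alternatives its adjusted p ran from 0.0264, with the replicate number as a block, to 0.397, without antiCD47 2, where its log2 fold change was 0.27.

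**Figure D2:**
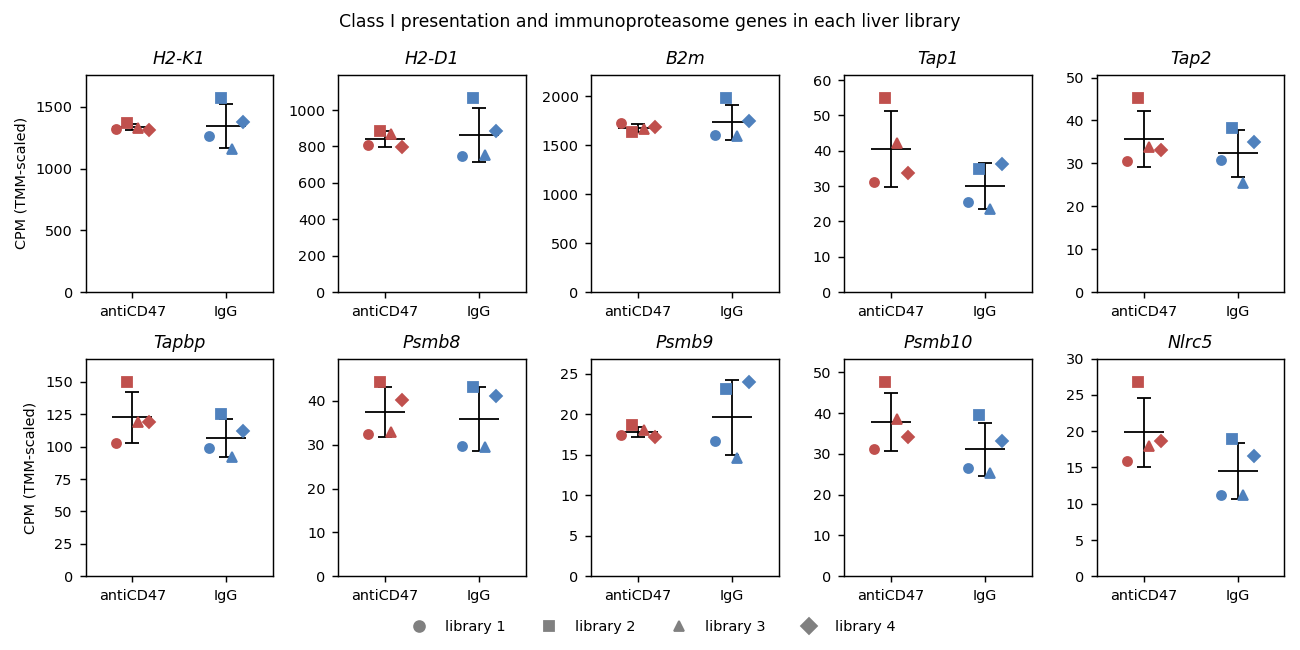
CPM of each of the 10 class I genes in every library, antiCD47 left of IgG, with 1 marker shape per library number and bars for the mean ± SD (n = 4 each). The groups overlap in every panel, and H2-K1, B2m and Psmb9 spread less in antiCD47 livers than in IgG livers.

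Levels per transcript length separated the heavy and light chains from the other members, and Nlrc5 from all of them. In CPM per kilobase, B2m averaged 1953 ± 48.0 in antiCD47 livers and 2016 ± 209 in IgG livers (SD, n = 4 each), H2-K1 824 ± 15.0 and 831 ± 109, and H2-D1 400.0 ± 21.0 and 411 ± 71.0, and these did not overlap one another in either group. Tapbp followed at 42.4 ± 6.77 CPM per kilobase in antiCD47 livers and 36.8 ± 5.05 in IgG livers, then Psmb10 at 28.9 ± 5.45 and 23.7 ± 5.01, and Psmb8 at 23.002 ± 3.56 and 22.1 ± 4.45. Psmb10 and Psmb8 overlapped in both groups, and Psmb10 overlapped Tapbp in antiCD47 livers. Psmb9 at 13.2 ± 0.496 in antiCD47 livers and 14.5 ± 3.45 in IgG livers, Tap1 at 13.7 ± 3.63 and 10.2 ± 2.19, and Tap2 at 10.4 ± 1.91 and 9.41 ± 1.59 overlapped one another in both groups. Nlrc5 was lowest, at 2.62 ± 0.632 CPM per kilobase in antiCD47 livers and 1.91 ± 0.515 in IgG livers.

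The exchange of constitutive for inducible proteasome subunits was read from ratios of counts within each library, which do not depend on how libraries are scaled. The ratio of Psmb8 to Psmb5 counts was 0.338, 0.530, 0.366 and 0.544 in antiCD47 libraries 1 to 4, against 0.340, 0.510, 0.371 and 0.577 in IgG libraries 1 to 4. The log2 difference was −0.015 ± 0.25 (SE), with p = 0.886 in a two-sided exact permutation test and 0.886 after adjustment over the 5 ratios tested. Libraries that carry the same number had almost the same value in both groups. Psmb5 shares 74.0% of its 31-base words with other genes, mostly the gene model Gm3375, so the height of this ratio is uncertain.

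The Psmb9 to Psmb6 ratio was 0.158, 0.174, 0.168 and 0.175 in antiCD47 libraries, against 0.164, 0.215, 0.146 and 0.263 in IgG libraries (log2 difference −0.19 ± 0.19, exact permutation p = 0.4, adjusted 0.667). For Psmb10 to Psmb7 the ratios were 0.281, 0.458, 0.338 and 0.352 in antiCD47 libraries, against 0.251, 0.384, 0.255 and 0.348 in IgG libraries (log2 difference 0.21 ± 0.21, exact permutation p = 0.4, adjusted 0.667). Per transcript length the constitutive partners stood above the immunosubunits in both groups: Psmb5, Psmb6 and Psmb7 averaged 95.5, 132 and 91.8 CPM per kilobase in antiCD47 livers and 89.9, 125 and 86.9 in IgG livers. Their log2 fold changes were 0.09, 0.08 and 0.08, with adjusted p of 0.547, 0.449 and 0.435 (edgeR), and all 3 turned negative with scaling by totals.

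Heavy chain counts per B2m count, H2-K1 and H2-D1 together, were 1.23, 1.38, 1.32 and 1.25 in antiCD47 libraries, against 1.25, 1.33, 1.20 and 1.30 in IgG libraries. The log2 difference was 0.03 ± 0.05 (SE; exact permutation p = 0.657, adjusted 0.821). Tap1 counts per Tap2 count were 1.02, 1.21, 1.25 and 1.02 in antiCD47 libraries, against 0.827, 0.915, 0.926 and 1.04 in IgG libraries. All 4 antiCD47 libraries were above the IgG mean, but IgG 4 exceeded 2 of them. The log2 difference was 0.28 ± 0.10 (SE), p = 0.0857 in the exact permutation test and 0.429 after adjustment; with 4 libraries against 4 the smallest p possible is 0.0286.

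Tap1 and Psmb9, which share the promoter region printed above, gave the single pair of members singled out after their values were seen, so its ratio is given as a description with no test. The Tap1 to Psmb9 count ratio was 1.79, 2.95, 2.35 and 1.97 in antiCD47 libraries, against 1.52, 1.51, 1.62 and 1.52 in IgG libraries. The IgG values lay within a narrow band and every antiCD47 value lay above it. In IgG livers the pair moved together across libraries, while in antiCD47 livers Tap1 varied and Psmb9 stayed between 17.1 and 18.6 CPM.

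**Figure D3:**
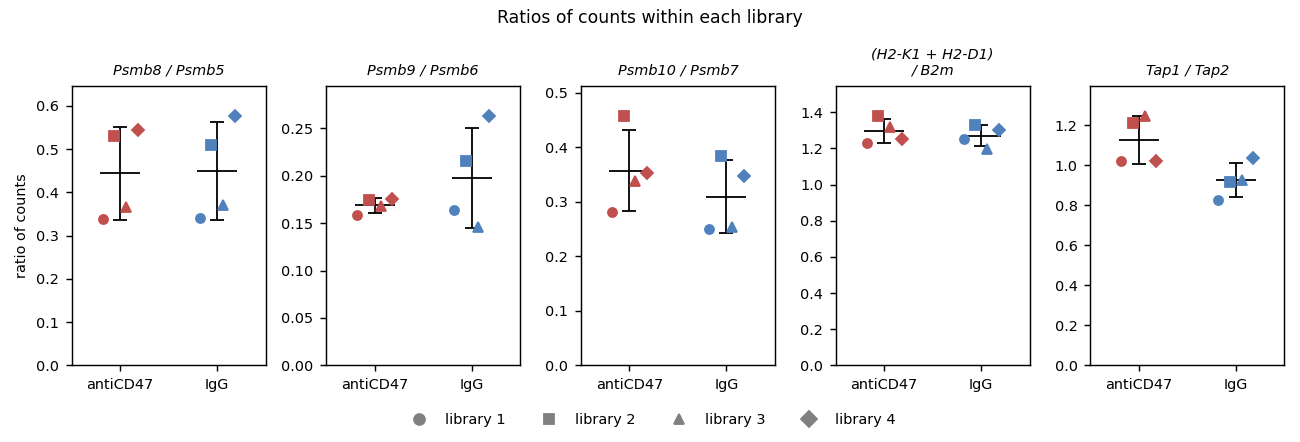
Count ratios within each library for the immunosubunits over their constitutive partners, the heavy chains over B2m, and Tap1 over Tap2, antiCD47 left of IgG, with bars for the mean ± SD (n = 4 each). Only the Tap1 to Tap2 ratio has all 4 antiCD47 libraries above the IgG mean, and the groups overlap in every panel.

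Within each group the members mostly ranked the libraries alike. By TMM-scaled CPM, antiCD47 2 was the highest antiCD47 library for 9 of the 10 members, with B2m the exception, and antiCD47 1 was the lowest for 6. These ranks depend on scaling: the TMM factor of antiCD47 2 was the lowest of all 8 libraries (0.895), which raises its CPM against the others. In antiCD47 4 that factor was 0.989. Ranks under other scalings, and the share of all genes that rank the libraries this way, were not counted. IgG 2 was the highest IgG library for 8 members, IgG 4 for Tap1 and Psmb9, and IgG 3 was the lowest for 9. The mean of the members' log2 CPM, each centred on its own mean over the 8 libraries, was −0.09, 0.30, 0.05 and 0.01 in antiCD47 libraries 1 to 4, against −0.24, 0.21, −0.33 and 0.08 in IgG libraries 1 to 4. Libraries within a group therefore differed by more than the groups did.

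A list of 30 interferon-stimulated genes ordered the libraries of each group in the same way. Their summed level was 1016, 2489, 1636 and 1432 CPM in antiCD47 libraries, against 802, 1221, 780.2 and 1166 CPM in IgG libraries. Markers of T cells, 12 of 12 detected, summed to 6.06, 10.1, 7.54 and 16.1 CPM in antiCD47 libraries, against 7.23, 15.0, 5.59 and 27.3 CPM in IgG libraries, and 0 of the 12 were called. Those of NK cells and cytotoxic granules, 10 genes, summed to 6.39 to 14.4 CPM in antiCD47 livers and 5.62 to 24.1 CPM in IgG livers, again with 0 called. The mitochondrial share of counts was 0.0851%, 0.146%, 0.0913% and 0.0926% in antiCD47 libraries, against 0.0669% to 0.0875% in IgG libraries, so antiCD47 2 was highest there too. The part of these in the members' pattern was not tested.

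**Figure D4:**
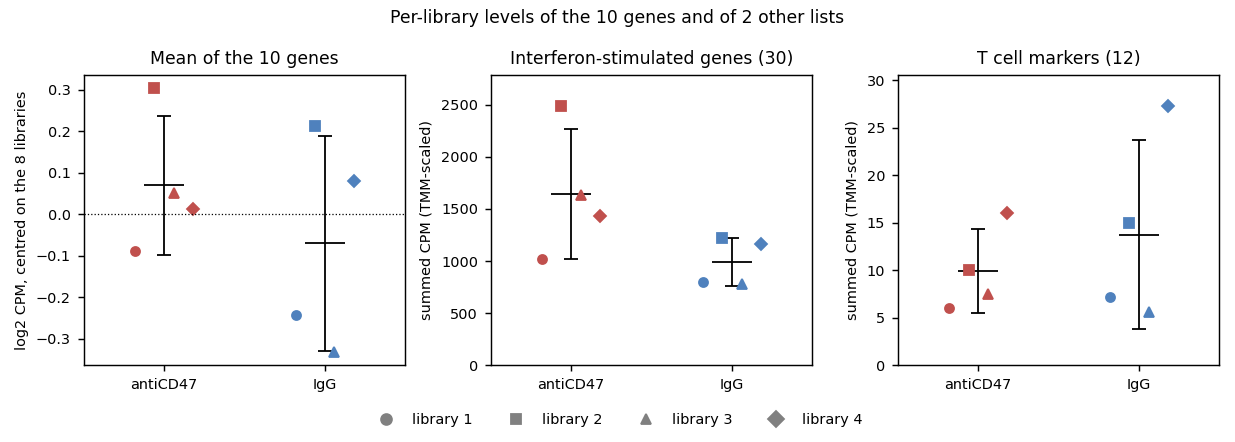
Mean centred log2 CPM of the 10 class I genes, summed CPM of 30 interferon-stimulated genes and summed CPM of 12 T cell markers in each library, antiCD47 left of IgG, with bars for the mean ± SD (n = 4 each). AntiCD47 2 and IgG 2 stand highest in their groups in the first and second panels, and library 4 of each group stands highest for T cell markers.

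By the same centred profile, Tapbp (root mean square difference 0.0651 log2 units) and Tap2 (0.0714) lay closest to the mean of the members over the 8 libraries, and Nlrc5 (0.206) and Tap1 (0.200) farthest. Outside all lists, the 5 tested genes nearest to that mean profile were Vmn2r114 (0.0566), Tcof1 (0.0647), Spata2 (0.0696), Rc3h1 (0.0702) and Pom121 (0.0825). Their log2 fold changes lay between 0.10 and 0.21, and their adjusted p in edgeR between 0.191 and 0.732.

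The other genes of the pathway were described with lists by role, read against 5.44% of all genes called higher and 5.4% called lower in antiCD47 livers. Non-classical and class I-like molecules had 17 of 22 genes tested, of which 0 were called higher and 1 lower, with a median log2 fold change of −0.09. The gene called was Mr1, which presents microbial vitamin metabolites to MAIT cells. Mr1 had 6.71, 3.77, 5.41 and 5.07 CPM in antiCD47 libraries, against 8.56, 7.04, 10.3 and 8.92 CPM in IgG libraries, with no overlap. It fell by 0.73 ± 0.18 on the log2 scale (SE; adjusted p 0.0337, edgeR). H2-Q10, a secreted class I molecule made by hepatocytes, had 1636 to 2362 CPM in antiCD47 livers and 1923 to 2260 CPM in IgG livers (adjusted p 0.637, edgeR).

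Peptide trimming and loading genes had 16 of 16 tested and 0 called, with a median of 0.23 that became 0.042 with scaling by totals. The smallest p values belonged to Tpp2, a cytosolic peptidase (log2 0.29, adjusted p 0.0943), and Ganab, a glucosidase that trims new glycoproteins (0.32, adjusted p 0.0960). The 14 constitutive 20S subunits were all tested and 0 were called. Their 14 estimates were all positive, with a median of 0.09, but that median became −0.09 with scaling by totals. Psma5 (log2 0.26, adjusted p 0.0829) and Psma4 (0.18, adjusted p 0.0888) had the smallest p.

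Subunits of the 19S particle, which unfolds ubiquitinated proteins and feeds them to the 20S core, had 18 of 18 tested, 4 called higher and 0 lower, with a median of 0.15 that became −0.037 with scaling by totals. Psmd11 rose in antiCD47 livers, with 85.4, 96.3, 97.4 and 96.6 CPM against 77.9, 80.0, 74.2 and 73.3 CPM in IgG livers (log2 0.30 ± 0.06, adjusted p 0.0270, edgeR). The others were Psmd7 (0.30, adjusted p 0.0334), Psmc2 (0.27, 0.0393) and Psmd6 (0.22, 0.0436). With scaling by totals none of these 4 was called, at 0.11 for Psmd11 (adjusted p 0.190), 0.12 for Psmd7 (0.167), 0.079 for Psmc2 (0.299) and 0.033 for Psmd6 (0.688). Among 11 of 12 activator and assembly genes tested, 1 was called higher, Psme4, an activator that caps the 20S core (0.28, adjusted p 0.0456; 0.093 and 0.314 with scaling by totals).

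For interferon-γ signalling and class I transcription, 24 of 25 genes were tested, 2 were called higher and 0 lower, and the median was 0.27. With scaling by totals the median was 0.079 and 0 were called. DESeq2 called 7, beside 20.5% of all genes, and limma voom with quality weights 9, beside 28%. The fit with the replicate number as a block called 5, beside 15.7%. EdgeR called 10 without antiCD47 1, where 3630 of 15700 genes were called. It called 0 without antiCD47 3, IgG 1, IgG 3 or IgG 4. Jak1, a kinase at the interferon receptors, rose to 108, 175, 139.5 and 131 CPM in antiCD47 libraries, against 93.9, 97.8, 91.1 and 104 CPM in IgG libraries (log2 0.52 ± 0.13, adjusted p 0.0357, edgeR). Rela, an NF-κB subunit that acts through kappa B elements, rose as well (0.42 ± 0.10, adjusted p 0.0358). With scaling by totals Jak1 had 0.33 (adjusted p 0.0667) and Rela 0.23 (0.0707). Irf1 and Rfx5, factors that act at class I promoters, did not pass in edgeR. Irf1 had a log2 fold change of 0.87 (adjusted p 0.0726, edgeR) and Rfx5 one of 0.27 (adjusted p 0.225). Of the 19 alternatives, Irf1 passed in 3: DESeq2 (adjusted p 0.0114), limma voom with quality weights (0.0127) and edgeR without antiCD47 1 (0.0140). Rfx5 passed in 1, edgeR without antiCD47 1 (0.0349). In the authors' deposited table the adjusted p of Irf1 was 0.0207. Irf1 had 30.2, 58.4, 78.9 and 52.6 CPM in antiCD47 libraries, against 22.4, 38.8, 22.3 and 36.6 CPM in IgG libraries. Ifng, the ligand, had 0 to 3 counts per library and was not tested.

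Of the interferon-stimulated genes, 30 of 30 were tested, 4 were called higher and 0 lower, and the median was 0.63. Gbp5, a guanylate-binding protein of the interferon-γ response, had 4.51, 19.9, 14.9 and 11.8 CPM in antiCD47 libraries, against 2.44, 3.82, 2.27 and 4.84 CPM in IgG libraries (log2 1.93 ± 0.41, adjusted p 0.0268, edgeR). AntiCD47 1 was the single antiCD47 library inside the IgG range. The other 3 were its relative Gbp4 (1.78, adjusted p 0.0368), Cd274, which encodes the checkpoint ligand PD-L1 (1.41, 0.0369), and Mx2, an antiviral GTPase (0.88, 0.0406). Limma voom called 0 of the 30, beside 11.3% of all genes, with adjusted p of 0.0503 for Gbp5, 0.0767 for Gbp4, 0.0690 for Cd274 and 0.0538 for Mx2. DESeq2 called 7, beside 20.5% of all genes. Limma voom with quality weights called 14, beside 28%, and the replicate block 10, beside 15.7%. EdgeR called 0 without both libraries numbered 2, where 1090 of 15505 genes were called. It called 13 without antiCD47 1, where 3630 of 15700 were called, and 0 without antiCD47 2, antiCD47 3, IgG 1, IgG 3 or IgG 4. Over all 8 libraries the members' median was 0.10 in edgeR.

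A list of class I receptors and related receptors on lymphocytes and myeloid cells had 7 of 15 genes tested. Of these, 2 were called higher and 0 lower, and the median was −0.37. Pirb, an inhibitory myeloid receptor for class I in mice, had 12.2, 23.4, 16.7 and 13.2 CPM in antiCD47 libraries, against 7.70, 8.71, 9.96 and 10.5 CPM in IgG libraries (0.83 ± 0.20, adjusted p 0.0328, edgeR). Lilrb4a, another inhibitory myeloid receptor, rose by 1.07 on the log2 scale (adjusted p 0.0439). The CD8 chains Cd8a (−0.86, adjusted p 0.468) and Cd8b1 (−0.88, adjusted p 0.295) did not pass. Cd8a had 0.511, 0.785, 0.471 and 1.76 CPM in antiCD47 libraries, against 0.610, 1.05, 0.261 and 4.41 CPM in IgG libraries, and its estimate became 0.45 without IgG 4.

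**Figure D5:**
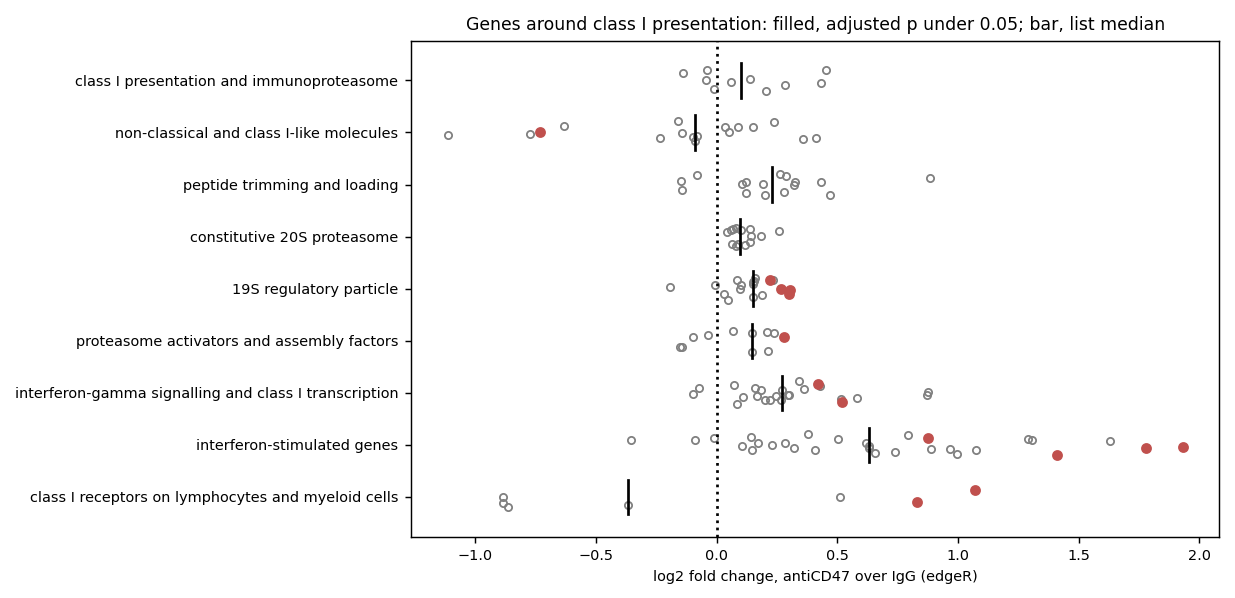
Log2 fold change of antiCD47 over IgG for every tested gene of each list, with the list's median, and filled points for genes past an adjusted p of 0.05 in edgeR. The class I genes have a median of 0.10 with 0 called, and the interferon-stimulated genes a median of 0.63 with 4 of 30 called.

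Many calls depended on single libraries, among these surrounding genes and over all genes alike. Over all genes, 1678 were called with every library. The count was 21 without antiCD47 3, 174 without IgG 1, 92 without IgG 3 and 2 without IgG 4. It was 3630 without antiCD47 1, 756 without antiCD47 2, 1653 without antiCD47 4 and 1598 without IgG 2. Of the 14 named genes called, 0 remained called without antiCD47 3, without IgG 1, without IgG 3 or without IgG 4, with adjusted p between 0.0538 and 0.128, whereas all 14 remained called without antiCD47 1, 3 without antiCD47 2, 9 without antiCD47 4 and 6 without IgG 2. The estimates moved less than the calls: with 1 library left out, Psmd11 ranged from 0.28 to 0.34 and Gbp5 from 1.63 to 2.21. Some markers of other liver cells also differed between the groups, beside 5.44% of all genes called higher and 5.4% called lower. Kupffer cell markers summed to 343 to 633 CPM in antiCD47 livers and 172 to 319 CPM in IgG livers, with 7 of 8 called higher. Neutrophil markers summed to 15.5 to 34.0 CPM in antiCD47 livers and 6.78 to 8.95 CPM in IgG livers, with 7 of 7 tested called higher and the eighth at 0 in some library. Dendritic cell markers summed to 9.46 to 11.8 CPM in antiCD47 livers and 10.98 to 15.0 CPM in IgG livers, which overlap, with 1 of 8 called lower. Cholangiocyte markers summed to 97.4 to 333 CPM in antiCD47 livers and 405 to 557 CPM in IgG livers, with 7 of 8 called lower. Erythroid markers summed to 850.4 to 1492 CPM in antiCD47 livers and 312 to 462 CPM in IgG livers, with 5 of the 5 found in the table called higher. Stellate cell markers summed to 506 to 677 CPM in antiCD47 livers and 727 to 1032 CPM in IgG livers, with 2 of 8 called lower. In the authors' deposited table their adjusted p was 1.94e-08 for Col1a1, 3.21e-06 for Col3a1 and 0.0336 for Pdgfrb. For the rest of that list it ran from 0.338 to 0.910. Sinusoidal endothelium had 0 of 8 markers called, B cells 0 of 6, monocytes and recruited macrophages 1 of 8 higher and hepatocytes 1 of 8 higher. Every Kupffer, dendritic, cholangiocyte, erythroid and stellate marker was above 0 in every library, and the part of these cells in the levels of the class I genes was not tested.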

How the data were processed

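Per the labels' protocols, TruSeq libraries of polyadenylated RNA were sequenced from whole liver, 4 of antiCD47 and 4 of IgG mice. The deposited table lists unnormalized estimated counts by Ensembl gene, all whole numbers. The submitters' processing notes name Salmon 1.3.0, the build GRCm39 and DESeq2 1.32.0 without saying what each was used for. The authors' deposited comparison table gives, per the file headers, a rank score, a p-value, an adjusted p-value, a log2 fold change and a mean normalized count (a signal over all libraries) for each gene. Only its names and adjusted p-values were used.

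Of 54309 genes, 27899 had no count. Columns were matched to samples by title, with 0 left unused. Libraries of a group differed by a chi-square of at least 24.2 for each degree of freedom, so all 8 counted as separate. Genes were filtered with filterByExpr, scaled with TMM and compared with glmQLFit and glmQLFTest in edgeR 4.0.16 (R 4.3.3), two-sided, with Benjamini-Hochberg adjustment over 15472 genes, a threshold of 0.05 and intervals at 95%. The common dispersion was 0.028. CPM divides a gene's count by its library's TMM-scaled size, and centred profiles used a prior count of 2. The steps were tested on simulated data. Ratios were tested by exact permutation in scipy 1.17.1.

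Lengths of each gene's principal transcript and its 31-base words came from GENCODE on an older build, and promoter windows from RefSeq. The members and gene lists were chosen with earlier results of these data known. The text names the 10 members, up to 6 called genes of each pathway list or, with none called, the 2 of smallest p, the counterparts Psmb5, Psmb6 and Psmb7, Irf1, Rfx5, Cd8a, Cd8b1 and Ifng, and 5 genes of like profile; a single result under this rule is not reported here. H2-Q10 and the Tap1 to Psmb9 ratio were added after their values were seen. Alternatives were other scalings and low-count filters, DESeq2 1.42.0, limma 3.58.1 voom, plain and quality-weighted, edgeR's robust fit, the replicate number as a block, each library left out in turn, and both libraries numbered 2 left out.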

Additional observations from a re-analysis of the deposited data

Results flagged for a closer look

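In 84 groups of 4 libraries, the CPM of each named gene and the ratios were checked for a library far from the other 3 of its group, relative to the group's range, and 2 stood apart; chance flags about 1 in 20 groups. Psmd11, a 19S proteasome subunit, was lowest in antiCD47 1 at 85.4 CPM, where the other antiCD47 libraries had 96.3 to 97.4 CPM. Cd8b1, the CD8 beta chain, was highest in antiCD47 4 at 0.811 CPM, where the other antiCD47 libraries had 0.287 to 0.362 CPM. None of the 10 class I genes had a library set apart by this measure in either group.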

How the results depend on the processing

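The count of all genes called was 1678. It was 3581 with scaling by library totals (428 higher and 3153 lower), 3174 with DESeq2, 4331 with limma voom with quality weights and 1090 without both libraries numbered 2, and it ranged from 2 (without IgG 4) to 3630 (without antiCD47 1) when 1 library was left out. It was 756 without antiCD47 2, 21 without antiCD47 3, 174 without IgG 1 and 92 without IgG 3. Upper quartile scaling gave 634 higher and 969 lower. Of the class I genes, 1 was called with quality weights (Tap1, adjusted p 0.0442) and 1 with the replicate number as a block (Nlrc5, adjusted p 0.0264), where the background was 28% and 15.7% of genes; 0 were called in the other 17 alternatives. The cause was not tested. Over all genes tested, same-numbered libraries deviated together with r of 0.0316, 0.157, −0.0232 and 0.0345, so the numbers were not read as pairs. The replicate block gave 2425 genes called. It lowered the SE of every class I gene but B2m (0.087 without the block, 0.088 with it). For Psmb8 the SE went from 0.15 to 0.064, and for Nlrc5 from 0.21 to 0.095. Whether the class I genes follow the library numbers was not tested. Estimates near 0 changed sign. H2-K1 became 0.036 with quality weights and 0.059 without both libraries numbered 2, and ranged from −0.070 to 0.074 with 1 library left out. H2-D1 became 0.050 and 0.051 in the same settings (range −0.10 to 0.079), and B2m 0.039 without both libraries numbered 2 (range −0.080 to 0.027). Scaling by totals gave −0.051 for Tap2, −0.13 for Psmb8, −0.0054 for Psma4, −0.098 for Psmb5, −0.11 for Psmb6 and −0.11 for Psmb7, and upper quartile scaling −0.0026 for Psmb8. With 1 library left out, Psmb8 ranged from −0.030 to 0.16 and Cd8a from −1.42 to 0.45. The log2 difference of Psmb8 to Psmb5 ranged from −0.14 to 0.12, and that of heavy chains to B2m from −0.0028 to 0.052; 3 libraries against 4 cannot reach an exact p of 0.05. Of 14 called named genes outside the 10, 5 remained with scaling by totals and 4 without both libraries numbered 2. Each class I gene had at least 536 counts in every library.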
